A study of Mus musculus with 18 samples.

Results

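The comparison covers the RNA with short poly(A) tails in the brain of CPEB4 GT/+ mice, set against that of WT mice. Its members are the WASH arrays of those genotypes, chosen by their labels: 2 arrays of CPEB4 GT/+ animals and 2 of WT animals, 4 of 18 arrays in the series. All animals were 6 weeks old, and each sample held cortex with striatum, so every value averages over both regions. CPEB4 GT/+ animals carry the GT allele of Cpeb4 beside an unaltered copy, as the notation reads, and the series text also writes the name with KO before GT/+. WT animals carry no alteration named in the labels. What GT stands for, the strain, the sex and how the allele was made are not given in the sources used here. Each array is 1 animal, as the labels read, and no treatment is named for either group. Each animal gave total RNA (INPUT) and, after binding to poly(U) beads, an early release at 25% formamide that holds mostly short tails (WASH) and a later one at 90% that holds mostly long tails (ELUTED). The 2 CPEB4 KO animals of the series entered the fit of WASH only to help estimate the spread between animals.

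The poly(A) tail is added to an mRNA in the nucleus and is shortened or lengthened again in the cytoplasm. CPEB proteins bind a U-rich element in the 3′ untranslated region of their target mRNAs and recruit either deadenylases, which shorten the tail, or poly(A) polymerases, which lengthen it, and long tails go with translation in many cells. CPEB4 is expressed in neurons of the forebrain. An mRNA that loses its tail in the cytoplasm would move toward the WASH fraction, and so would a larger amount of the same mRNA with no change of tail, which is why the WASH values are given here beside those of INPUT from the same animals.

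The values were log2 levels as the authors deposited them, after RMA, a procedure that brings the arrays to a common scale. A difference of 1 is a doubling relative to the other genes on the arrays, and a change in the total amount of short-tailed RNA was not measured. The 4 arrays were alike as a whole. Medians over probe sets were 6.33 and 6.32 on CPEB4 GT/+ arrays and 6.35 and 6.36 on WT arrays, and the highest nonspecific control stood between 5.07 and 5.13 on them. On the INPUT arrays of the same animals that control stood higher, between 6.60 and 6.75, and INPUT values under it lie in the range of these controls. Across genes, which are not independent replicates, the CPEB4 GT/+ arrays correlated with each other at r = 0.9932 and the WT arrays at 0.9936, while the array pair closest to each other was CPEB4 GT/+ 1 with WT 2 (0.9958). CPEB4 GT/+ 2 correlated with the other WASH arrays at 0.9903 to 0.9932. The cortical markers Tbr1 and Slc17a7 stood at 9.18 to 11.11 and the striatal markers Ppp1r1b, Drd1 and Drd2 at 6.87 to 9.87 on the 4 arrays, all above the level filter of 5.52. Xist stood between 10.39 and 10.67 on all 4 arrays, with the Y-linked genes Uty, Eif2s3y and Kdm5d below the filter.

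Cpeb4 itself was the first gene examined. Its WASH level was 8.19 and 8.40 in CPEB4 GT/+ animals, against 8.73 and 8.75 in WT animals. Both CPEB4 GT/+ animals lay below both WT animals. The means were 8.30 ± 0.14 in CPEB4 GT/+ and 8.74 ± 0.01 in WT (SD, n = 2 each), a difference of -0.44 (SE 0.12, 95% interval -0.72 to -0.17), or 0.736 of the WT level. Over all genes this did not pass limma's test (adjusted p = 0.752). The other probe set of Cpeb4 above the filter differed by a larger amount (-0.77), and the third, under the filter by its mean over all arrays, differed by -0.48. In INPUT the levels were 7.31 and 7.002 in CPEB4 GT/+ and 8.15 and 7.62 in WT, a difference of -0.73, and in ELUTED the difference was -0.80. The log2 WASH value minus the log2 INPUT value of the same animal (WASH over INPUT) was 0.88 and 1.40 in CPEB4 GT/+ and 0.58 and 1.12 in WT, and these ranges overlap (difference 0.29, SE 0.22, adjusted p = 1.00 by limma). The CPEB4 KO animals, set against the same WT arrays, stood at 7.45 and 7.74 in WASH, where Cpeb4 was among 6 of 12822 genes called (0.0468%).

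The other members of the family encode proteins that bind a like element. Cpeb1, which binds the classical cytoplasmic polyadenylation element, was at 8.04 and 8.18 in CPEB4 GT/+ and at 7.92 and 7.64 in WT (difference 0.33, SE 0.13). Cpeb2 was at 9.39 and 9.64 in CPEB4 GT/+ and at 9.29 and 9.13 in WT (difference 0.31, SE 0.13). In both genes the CPEB4 GT/+ animals lay above the WT animals, and the adjusted p was 0.752 for each. Their INPUT values differed in the same direction, by 0.23 for Cpeb1 and 0.29 for Cpeb2, so that WASH over INPUT differed by 0.10 and 0.02. The other probe sets of Cpeb2 above the filter differed by 0.04 and 0.11 in WASH. Cpeb3, which in mouse takes part in the control of synaptic proteins, was at 8.04 and 7.84 in CPEB4 GT/+ and at 8.01 and 8.11 in WT, with overlapping animals, and 1 of its 2 other probe sets above the filter differed in the opposite direction. The 20 genes next to Cpeb4 on its chromosome, 10 kept genes on either side in the RefSeq order, differed by -0.30 to 0.32 with a median of 0.04, and 12 of them lay above 0.

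Across the transcriptome no gene passed. Of 12822 genes tested, 0 had an adjusted p under 0.05 (limma with Benjamini-Hochberg adjustment, 0% called), and the smallest adjusted p was 0.561, held by Gh and Nppc. At an unadjusted p under 0.05 there were 803 genes (6.26% of those tested, against 641.1 that this threshold gives without any difference), 460 higher in CPEB4 GT/+ (3.59%) and 343 lower (2.68%). The balance of directions moved with the scaling: it was 605 to 224 with each array centred on its median, 334 to 384 with quantile normalization and 463 to 34 with the arrays aligned on their hybridisation controls. With INPUT in place of WASH 438 genes reached that threshold (3.42%), and with ELUTED 114 (0.889%), in each case with 0 called. How far this comparison could see is given by the intervals of the real values. In simulated data 36% of planted differences of 0.58 were called. Those data also held planted differences of 1, 2 and 3, and calls of these ease the adjusted threshold for the smaller ones. The share of 36% therefore does not carry over to real data with 0 genes called. The median SE was 0.11 and the median half-width of the 95% interval 0.25. For 12107 genes (94.4%) the interval lay within a log2 difference of 0.58 on either side of 0, which is a change of about 1.5 times, and for 12799 genes (99.8%) it lay within 1. Between single animals of different genotype the median absolute difference ran from 0.0917 to 0.152 over the 4 possible pairs, and it was 0.122 between the CPEB4 GT/+ animals and 0.101 between the WT animals. Between the means of the genotypes, which vary less than single animals do, it was 0.095.

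A small part of the differences went with the level of the gene. The genes were put in 5 classes of equal size by their mean over the 18 arrays. In the lowest class (5.52 to 6.40) the median difference was -0.05 and 36.5% of genes were higher in CPEB4 GT/+. In the fourth class (8.24 to 9.34) the median was 0.07 and 73.2% were higher. In order of level the classes had medians of -0.05, -0.0046, 0.06, 0.07 and 0.03, and over all genes the median was 0.03 with 58.4% above 0. The spread of values over probe sets was 1.98 and 2.01 (SD) on the CPEB4 GT/+ arrays and 1.97 and 1.96 on the WT arrays, and quantile normalization of the arrays brought the median over all genes to -0.0017. The shares of genes higher in CPEB4 GT/+ were 36.5, 49.1, 65.5, 73.2 and 67.9% in the same order. The medians of the lists are to be read against these classes, whose values are printed beside some lists only. They also rest on few animals: leaving out 1 CPEB4 GT/+ or WT animal moved the median of 33 of 36 lists by over 1.5 times, all but oligodendrocytes, translation factors, and poly(A) polymerases with their partners. It turned the sign of 7, which were blood, cytosolic ribosomal proteins, endothelial and mural cells, long noncoding RNAs, other brain regions, the proteasome and histones.

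**Figure D1:**
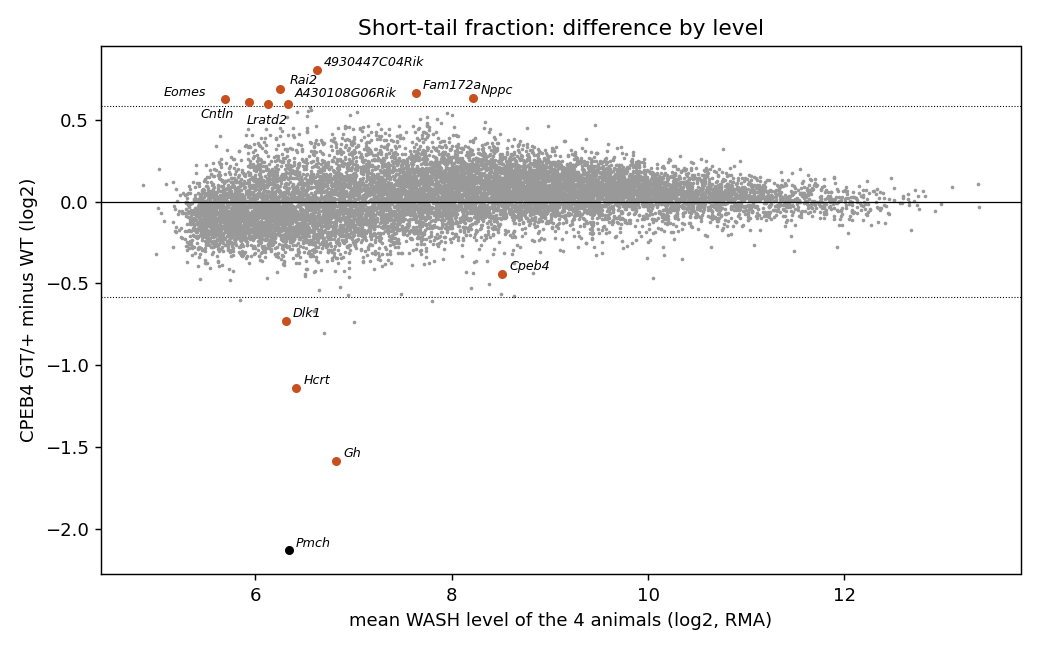
Difference between CPEB4 GT/+ and WT in WASH (log2, vertical axis) against the mean WASH level of the 4 animals (log2, horizontal axis), 1 grey point per gene for 12822 genes. Cpeb4 and the 11 genes with the largest differences without overlap are in orange, Pmch, whose animals overlap, is in black, and dotted lines mark 0.58 on either side of 0. Nearly all genes lie between the dotted lines, and the cloud sits slightly above 0 at levels of 8 to 9.

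Only 17 genes differed by 0.58 or more in size, and in 11 of these the animals of the genotypes did not overlap (0.0858% of genes tested), 8 higher and 3 lower. Nppc, which encodes C-type natriuretic peptide, was the most regular of those that were higher. It stood at 8.57 and 8.50 in CPEB4 GT/+ animals and at 7.89 and 7.92 in WT animals. The gap between the genotypes was far wider than that between the animals of either, with means of 8.54 ± 0.05 and 7.91 ± 0.02 (SD, n = 2 each) and a difference of 0.63 (SE 0.10, adjusted p = 0.561). It was also higher in INPUT (7.95 and 8.07 in CPEB4 GT/+, 7.36 and 7.74 in WT, difference 0.46) and in ELUTED (0.49), so WASH over INPUT differed by only 0.17. In the CPEB4 KO animals it was at 7.89 and 8.04 in WASH, at the WT level.

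Fam172a, whose protein is known to act in chromatin and splicing, was at 7.84 and 8.09 in CPEB4 GT/+ and at 7.24 and 7.36 in WT (0.66, SE 0.14). Its INPUT difference was 0.28. 4930447C04Rik differed by 0.80 (SE 0.19) on its brightest probe set, with 6.86 and 7.19 in CPEB4 GT/+ and 6.57 and 5.88 in WT, and its INPUT difference was 0.11 with overlapping animals. The gap between the WT animals was wider than that between the nearest animals of different genotype. Its difference was 0.32 with the mean of its probe sets, 1.15 without WT 1 and 0.46 without WT 2. The others were lower in level. Lratd2 was at 6.39 and 6.47 in CPEB4 GT/+ and at 5.66 and 6.00 in WT. A430108G06Rik was at 6.49 and 6.77 in CPEB4 GT/+ and at 6.09 and 5.98 in WT. Rai2 was at 6.26 and 6.94 in CPEB4 GT/+ and at 5.89 and 5.94 in WT, and Cntln, a centrosomal protein gene, at 5.92 and 6.57 in CPEB4 GT/+ and at 5.78 and 5.49 in WT. In Rai2 and Cntln the CPEB4 GT/+ animals differed from each other by more than 0.6, with CPEB4 GT/+ 2 the higher in both. Eomes, a transcription factor of intermediate progenitors and of olfactory bulb projection neurons, was at 6.14 and 5.88 in CPEB4 GT/+ and at 5.43 and 5.34 in WT, under the filter, and 1 CPEB4 KO animal stood at 6.80. Its difference was 0.62 (SE 0.33) with a 95% interval that takes in 0 (-0.10 to 1.35), and 0.35 with the mean of its probe sets. The adjusted p was 0.752 for each of these genes except Nppc.

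The lower genes were Gh, Hcrt and Dlk1, and none of them is a gene of cortical or striatal neurons. Gh, the growth hormone gene of the pituitary, was at 5.61 and 6.46 in CPEB4 GT/+ animals and at 7.91 and 7.32 in WT animals. All CPEB4 GT/+ values lay below all WT values, with means of 6.04 ± 0.60 and 7.62 ± 0.41 (SD, n = 2 each) and a difference of -1.58 (SE 0.24, 95% interval -2.12 to -1.04, adjusted p = 0.561). Its 4 probe sets above the filter differed by -1.58 to -0.54, all without overlap, and 3 of them carry the x mark that the array maker gives to probe sets that may match other sequences. The same animals showed the difference outside the short-tail fraction: in INPUT Gh was at 5.83 and 6.44 in CPEB4 GT/+ and at 7.59 and 6.86 in WT (-1.09), and in ELUTED it differed by -1.16. The CPEB4 GT/+ values in INPUT lay under the highest nonspecific control of those arrays (6.75 and 6.60). WASH over INPUT differed by -0.49 (SE 0.14, adjusted p = 1.00). The CPEB4 KO animals stood at 5.88 and 5.98 in WASH. Whether Gh passed depended on the setting: it did not in the design used throughout, and it passed with a variance trend on level (adjusted p = 0.0210), with the arrays aligned on their hybridisation controls (0.000397) and without CPEB4 GT/+ 2 (0.0319, difference -2.004) or without WT 2 (0.0155). Of the other pituitary genes kept, Pomc was at 5.99 and 6.04 in CPEB4 GT/+ and at 6.38 and 6.24 in WT, a difference of -0.30. In INPUT Pomc overlapped, at 6.33 and 6.13 in CPEB4 GT/+ and at 6.14 and 6.31 in WT (0.01). All of these INPUT values lay under the highest nonspecific control of their arrays (6.60 to 6.75), so INPUT may have been unable to show a difference in Pomc. Prl, the prolactin gene, was below the filter by its mean, with 4.26 and 4.98 in CPEB4 GT/+ and 5.91 and 5.12 in WT.

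Hcrt, the orexin precursor of lateral hypothalamic neurons, was at 5.96 and 5.74 in CPEB4 GT/+ and at 7.89 and 6.09 in WT. The distance between the genotypes came from WT 1. Dlk1, abundant in hypothalamus and in endocrine tissue, had the same form, with 5.96 and 5.94 in CPEB4 GT/+ and 7.31 and 6.04 in WT. Pmch, the melanin-concentrating hormone precursor of the lateral hypothalamus, was at 5.41 and 5.14 in CPEB4 GT/+ and at 9.55 and 5.26 in WT, and the animals overlapped. Only WT 1 of these 4 animals had Pmch above the filter, in INPUT also (9.23, against 5.16 in WT 2), and 1 CPEB4 KO animal was likewise high in WASH (8.60). The gene was kept through those 2 animals, so its fitted difference (-2.13, SE 1.18, adjusted p = 0.752) is set against values near the nonspecific controls and is no measure of size.

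Of 28 genes kept in the list of other brain regions, 23 lay below 0 with a median of -0.19, against a median of -0.0046 in genes of their level; some members of this list and the pituitary list as a whole came from earlier results of these data. WT 1 was the highest of the 6 WASH arrays in 15 of the 28. The share of all genes tested in which WT 1 was highest is not given here, so this count is not read as particular to the list. Without WT 1 the median was 0.006 and 14 of 28 lay on either side of 0. The dopamine genes Th and Ddc followed WT 1: Th, tyrosine hydroxylase, was at 7.66 and 7.33 in CPEB4 GT/+ and at 9.02 and 7.19 in WT, and Ddc, the decarboxylase after it, at 6.28 and 6.25 in CPEB4 GT/+ and at 7.66 and 6.20 in WT. C1ql2, a synaptic protein gene of the dentate gyrus, did not rest on WT 1 alone, with 6.46 and 6.76 in CPEB4 GT/+ and 7.22 and 7.04 in WT (-0.52, SE 0.12, adjusted p = 0.752), nor did Prox1, the granule cell transcription factor, with 6.77 and 6.61 in CPEB4 GT/+ and 7.28 and 6.94 in WT (-0.43). Without WT 2, so with WT 1 as the only WT animal, 13 genes were called, all lower in CPEB4 GT/+: Gh, Hcrt, Dlk1, Th, Ddc, Baiap3, Cartpt, Igsf1, AW551984, Gpr165, Gpx3, Itih3 and Sncg. Without WT 1, 0 genes were called. The part that other regions in the dissected tissue had in these differences was not tested. Cdhr1, a cadherin gene of olfactory bulb projection neurons, lay on the other side, at 7.35 and 7.11 in CPEB4 GT/+ and at 6.67 and 6.72 in WT (0.53), and at 7.84 and 8.64 in CPEB4 KO, against the same WT arrays.

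**Figure D2:**
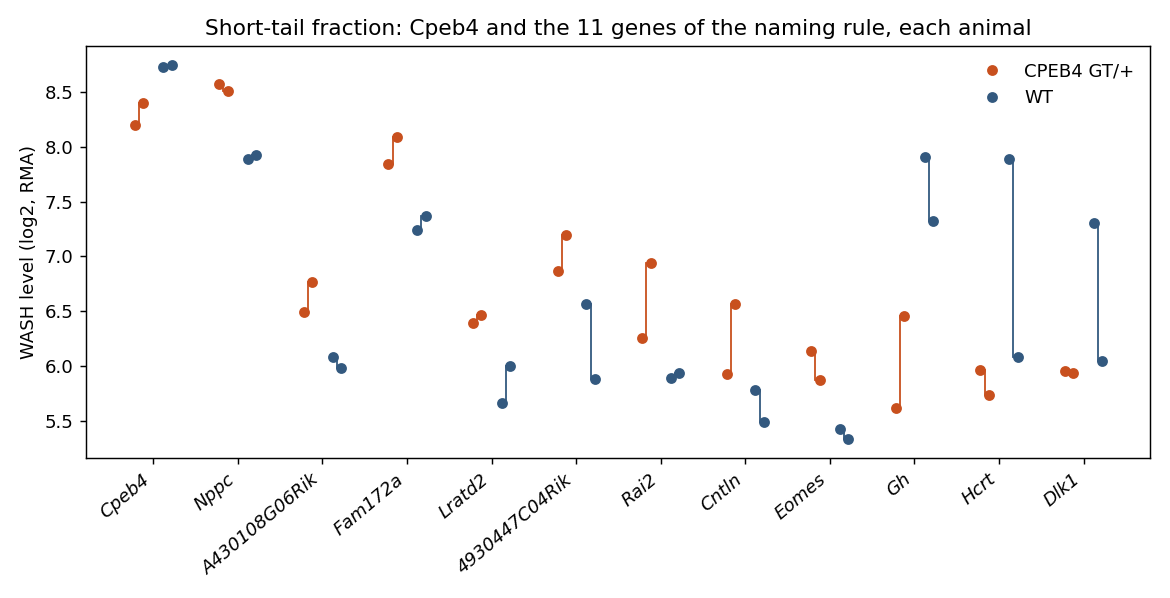
WASH level (log2, vertical axis) of Cpeb4 and of the 11 genes with a difference of at least 0.58 and no overlap, 1 point per animal, with CPEB4 GT/+ in orange to the left of WT in blue and a line joining the animals of a genotype. Nppc shows tight pairs at 8.57 and 8.50 in CPEB4 GT/+ and 7.89 and 7.92 in WT, whereas Hcrt and Dlk1 are high in 1 WT animal only.

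Among the cell types of the tissue, oligodendrocyte genes were the most uniform. Of 33 kept genes of oligodendrocytes and myelin, 32 were lower in CPEB4 GT/+ (41.6% of all genes were), with a median of -0.19, whereas genes of their level had a median of 0.07. In 25 of the 33 both CPEB4 GT/+ animals lay below both WT animals (15.3% of all genes tested), and in 1, Evi2a, both lay above. At an unadjusted p under 0.05, 8 were lower and 0 higher, against 2.68% and 3.59% of all genes, and 0 passed the adjusted test. Expressed per animal as the median of the members' deviations from the WT mean, the values were -0.16 and -0.19 in CPEB4 GT/+ and 0.003 and -0.003 in WT. The CPEB4 KO animals stood at -0.0025 and 0.035 by the same measure, and 18 of the 33 genes had a higher mean in CPEB4 KO than in WT.

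Fa2h, the hydroxylase that makes the hydroxylated fatty acids of myelin lipids, was at 7.84 and 8.04 in CPEB4 GT/+ and at 8.27 and 8.28 in WT (-0.33, SE 0.11). Gjc3, a connexin gene of myelinating glia, was at 8.28 and 8.09 in CPEB4 GT/+ and at 8.54 and 8.55 in WT (-0.36, SE 0.11), and its other probe set differed by -0.17. Trf, the iron carrier transferrin, was at 10.56 and 10.44 in CPEB4 GT/+ and at 10.78 and 10.78 in WT (-0.28, SE 0.10). These 3 genes had an adjusted p of 0.752. The structural genes of myelin differed by less. Mag, the myelin-associated glycoprotein, differed by -0.21, Mog by -0.19, Cnp by -0.19 and Mbp, the basic protein, by -0.10. Mal, the most abundant member, was at 11.88 and 11.87 in CPEB4 GT/+ and at 12.00 and 12.02 in WT. Sox10 and Olig2, transcription factors of the lineage, were close to 0, at -0.04 and -0.02, with overlapping animals.

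The oligodendrocyte genes were lower in the other RNA of the same animals as well. In INPUT 0 of the 33 lay above 0 (51.8% of all genes did) with a median of -0.18, and in ELUTED the median was -0.27, so that WASH over INPUT had a median of 0.03 with 19 of 33 above 0. The size in INPUT varied: Fa2h, Gjc3 and Trf differed by -0.50, -0.40 and -0.34. Klk6, with the largest WASH difference of the list (-0.37), differed by only -0.03 in INPUT. In bulk RNA, fewer oligodendrocytes and less RNA of these genes per cell cannot be told apart. Of 14 kept genes of the precursors of these cells 5 lay above 0, with a median of -0.03, whose sign turned with the arrays aligned on their hybridisation controls (0.04). Ependymal, choroid plexus and meningeal genes lay lower as well, 19 of 21 below 0 with a median of -0.21, but in unequal amounts in the CPEB4 GT/+ animals (-0.28 and -0.06). Cfap126, a cilium gene, was at 6.39 and 6.23 in CPEB4 GT/+ and at 6.67 and 6.78 in WT (-0.41, SE 0.11), and Rarres2, the chemerin gene, at 8.59 and 8.53 in CPEB4 GT/+ and at 8.82 and 8.84 in WT (-0.28). The INPUT median of this list was -0.15.

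Neuronal genes of the dissected regions lay on the other side. Of 32 kept genes of cortical excitatory neurons 29 were higher in CPEB4 GT/+ (58.4% of all genes were), with a median of 0.15, against 0.07 in genes of their level. The medians per animal were 0.11 and 0.15 in CPEB4 GT/+ and -0.08 and 0.08 in WT, so the WT animals differed from each other by about as much as the genotypes did. In 18 of the 32 the CPEB4 GT/+ animals both lay above the WT animals (23.7% of all genes), and 2 (6.25%) reached an unadjusted p under 0.05, both higher, near the 3.59% of all genes that did so in that direction. These were Fezf2, the transcription factor of subcerebral projection neurons, at 7.58 and 7.76 in CPEB4 GT/+ and at 7.37 and 7.39 in WT (0.29), and Synpr, a synaptic vesicle protein gene, at 9.89 and 9.94 in CPEB4 GT/+ and at 9.52 and 9.73 in WT (0.29). Slc17a7, the vesicular glutamate transporter of these cells, was at 11.11 and 11.01 in CPEB4 GT/+ and at 10.64 and 10.98 in WT. The list's INPUT median was 0.10. Its WASH median was 0.09 without WT 1, 0.21 without WT 2 and 0.09 with quantile normalization.

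Of 27 kept genes of striatal projection neurons 23 were higher, with a median of 0.10 in WASH and 0.08 in INPUT. Ebf1, a transcription factor of direct-pathway neurons, was at 7.08 and 7.07 in CPEB4 GT/+ and at 6.56 and 6.81 in WT (0.39, SE 0.11), with an INPUT difference of -0.08, and the mean of its probe sets differed by 0.15 in WASH. Rxrg, a retinoid receptor, was at 8.75 and 8.77 in CPEB4 GT/+ and at 8.34 and 8.43 in WT (0.37, SE 0.10), with 0.12 in INPUT. Meis2 was the third of the list at an unadjusted p under 0.05 (0.25). Without WT 1 the median of the list was 0.05. In interneurons 12 of 21 genes were higher with a median of 0.04, and the largest difference was that of Vip, the peptide of a class of cortical interneurons, at 9.59 and 9.80 in CPEB4 GT/+ and at 9.13 and 9.33 in WT (0.47, SE 0.12, adjusted p = 0.752). Vip was also higher in INPUT (0.36) and was at 9.55 and 9.74 in CPEB4 KO animals in WASH.

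Other cell types gave smaller medians. Astrocyte genes had a median of -0.02 with 13 of 29 above 0, a sign that turned with the arrays aligned on their hybridisation controls (0.04). Endothelial and mural genes had a median of 0.01 with 14 of 27 above 0, whose sign turned under quantile normalization (-0.02) and without WT 1 (-0.02), CPEB4 GT/+ 1 (-0.0068) or CPEB4 GT/+ 2 (-0.0090). Microglial genes had 17 of 21 above 0 and a median of 0.09, close to genes of their level, but their medians per animal were 0.07 and 0.08 in CPEB4 GT/+ and -0.07 and 0.07 in WT, and without WT 1 the median was 0.0052. P2ry13, a purine receptor of microglia, was at 9.19 and 9.17 in CPEB4 GT/+ and at 8.76 and 8.95 in WT (0.33). Trem2, also of the microglial list, differed in the opposite direction without overlap (-0.23). Blood genes had 7 of 11 above 0 (median 0.06, -0.13 without WT 1 and -0.01 without CPEB4 GT/+ 1), and the haemoglobin gene Hba-a1 was at 12.91 and 12.76 in CPEB4 GT/+ and at 12.55 and 12.99 in WT, with overlap.

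**Figure D3:**
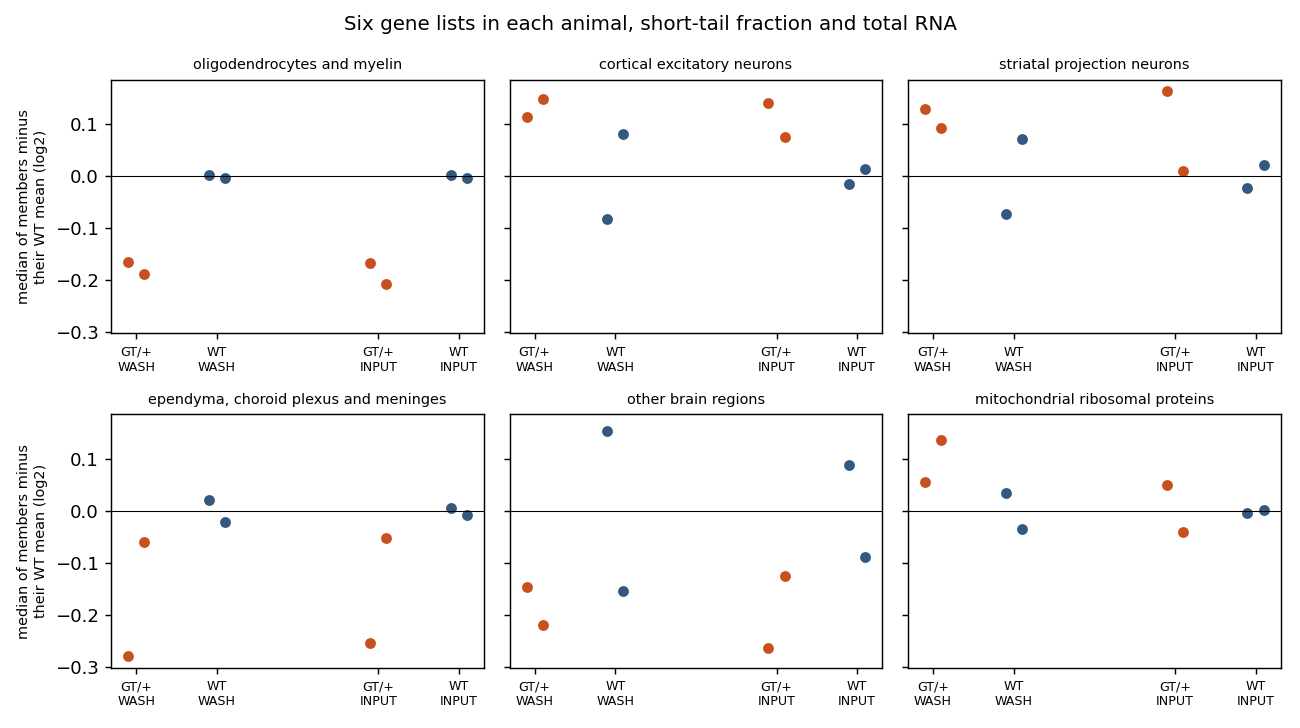
Median over the kept members of 6 gene lists of each animal's level minus the WT mean (log2, vertical axis), in WASH (left of each panel) and INPUT (right), with CPEB4 GT/+ animals in orange and WT animals in blue. Oligodendrocyte genes stand at -0.16 and -0.19 in the CPEB4 GT/+ WASH arrays with WT animals close to 0, while genes of other brain regions show a wide gap between the WT animals.

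The machinery of the poly(A) tail itself showed no called gene. Deadenylases and their cofactors, which remove the tail, had 14 of 19 genes above 0 (73.7%, against 73.2% of genes of their level) with a median of 0.12, against 0.07 in genes of their level, and CPEB4 GT/+ 2 had the larger share of it (0.17, against 0.07 in CPEB4 GT/+ 1). Pde12, a deadenylase of mitochondria, was at 6.24 and 6.28 in CPEB4 GT/+ and at 5.90 and 6.01 in WT (0.30, SE 0.13), or 0.13 with the mean of its probe sets. Tob1, which brings CCR4-NOT to mRNAs, was at 6.58 and 6.81 in CPEB4 GT/+ and at 6.37 and 6.53 in WT (0.24). Cnot7, a catalytic subunit of CCR4-NOT and the most abundant of the list, differed by 0.16. Among poly(A) polymerases, poly(A)-binding proteins and their partners 23 of 31 were above 0, with a median of 0.04 whose sign turned under quantile normalization (-0.0015, 15 of 31). Papolg, a nuclear poly(A) polymerase, was at 7.10 and 7.20 in CPEB4 GT/+ and at 6.70 and 6.83 in WT (0.38, SE 0.13). Zar1, known as a translational repressor in oocytes, was at 6.24 and 6.33 in CPEB4 GT/+ and at 6.66 and 6.59 in WT (-0.34, SE 0.12). Genes of nonsense-mediated and other RNA decay had 25 of 31 above 0 and a median of 0.07, that of genes of their level, with Dis3 of the exosome at 0.24 and Pnrc2, a decapping cofactor, at 0.29. For Pnrc2 1 of 2 other probe sets above the filter differed in the opposite direction.

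Genes of protein synthesis and energy supply had small differences. Of 68 cytosolic ribosomal protein genes 43 were above 0 with a median of 0.02, whose sign turned without WT 2 (-0.03, 24 of 68 above 0), and 0 reached an unadjusted p under 0.05. The most abundant, Rps2, was at 12.56 and 12.47 in CPEB4 GT/+ and at 12.44 and 12.56 in WT. Translation factors had 31 of 41 above 0 and a median of 0.03, with Eef1a1 at 12.64 and 12.52 in CPEB4 GT/+ and 12.59 and 12.59 in WT. Oxidative phosphorylation subunits had 56 of 68 above 0 (82.4%, against 67.9% of genes of their level) and a median of 0.05, against 0.03 in genes of their level. Again 0 reached an unadjusted p under 0.05, and Ndufb4 of complex I had the largest difference without overlap (0.26). Mitochondrial ribosomal proteins had a somewhat higher median and a like share, 60 of 73 above 0 (82.2%, against 73.2% of genes of their level). Their median was 0.10 in WASH, against 0.07 in genes of their level, and 0.02 in INPUT. Their WASH over INPUT had a median of 0.07 with 57 of 73 above 0 (55% of all genes were, at a median of 0.02). Mrpl35 was at 8.53 and 8.55 in CPEB4 GT/+ and at 8.27 and 8.28 in WT (0.26, SE 0.12). Quantile normalization brought the WASH median of this list to 0.04, and the 2 CPEB4 GT/+ animals were at 0.06 and 0.14. Proteasome subunits had a median of 0.01 (17 of 30 above 0), a sign that turned under quantile normalization (-0.03) and without WT 2 (-0.04) or CPEB4 GT/+ 1 (-0.0055). Glycolytic enzymes had a median of -0.03 (3 of 13), a sign that turned with the arrays aligned on their hybridisation controls (0.04), and antioxidant enzymes of 0.04 (13 of 20), a sign that turned under quantile normalization (-0.0074).

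Synaptic lists had medians of 0.03 to 0.06. Of 30 synaptic adhesion genes 24 were above 0 with a median of 0.06, and 5 reached an unadjusted p under 0.05, all higher, against 3.59% of all genes. They were Lrrtm4, Slitrk1, Slitrk2, Flrt2 and Adgrl2, transmembrane proteins that organise synapses, with differences of 0.23 to 0.32. Slitrk1 was at 7.27 and 7.33 in CPEB4 GT/+ and at 7.01 and 7.01 in WT (0.29, SE 0.10). Lrrtm4 was at 6.34 and 6.62 in CPEB4 GT/+ and at 6.19 and 6.14 in WT (0.32, SE 0.13). The INPUT differences were 0.32 for Slitrk1 and -0.02 for Lrrtm4. Without WT 1 the median of the list was 0.02.

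Glutamate receptor genes had 16 of 21 above 0 and a median of 0.05. Grm8, a presynaptic metabotropic receptor, was at 7.07 and 6.93 in CPEB4 GT/+ and at 6.60 and 6.62 in WT (0.39, SE 0.14), and Grin2d, an NMDA receptor subunit, at 5.56 and 5.52 in CPEB4 GT/+ and at 5.80 and 5.74 in WT (-0.23). GABA-A receptor subunits had 8 of 10 above 0, with Gabrg1 at 6.19 and 6.51 in CPEB4 GT/+ and at 5.99 and 5.90 in WT (0.40). Gphn, the gephyrin scaffold of inhibitory synapses, had the largest difference of the postsynaptic list, at 6.33 and 6.84 in CPEB4 GT/+ and at 6.12 and 6.02 in WT (0.52, SE 0.16, adjusted p = 0.752), and a WASH over INPUT difference of 0.69. The gap between the CPEB4 GT/+ animals was as large as the difference of the means. The other 26 postsynaptic genes differed by less, with a list median of 0.05, which was 0.0002 without WT 1 and 0.11 without WT 2. For GABA-A subunits the median was 0.06, 0.0011 without WT 1 and 0.15 without WT 2. Synaptic vesicle genes (23 of 37 above 0, median 0.03) and voltage-gated channels (25 of 38, median 0.06) had 0 genes at an unadjusted p under 0.05.

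Autism risk genes, a group that CPEB4 has been linked to through its target mRNAs, had 56 of 83 above 0 with a median of 0.05, below that of genes of their level (0.07). At an unadjusted p under 0.05, 4 were higher and 0 lower, against 3.59% and 2.68% of all genes. Taok1, a kinase gene, was at 8.93 and 8.94 in CPEB4 GT/+ and at 8.57 and 8.64 in WT (0.33, SE 0.11), but 2 of its 4 other probe sets above the filter differed in the opposite direction. Ilf2 was at 8.32 and 8.76 in CPEB4 GT/+ and at 8.21 and 8.15 in WT (0.36), and its other probe set differed by -0.09. Setd2, a histone methyltransferase gene, and Ptchd1 differed by 0.25 each. Quantile normalization left 41 of 83 above 0 (median -0.0003).

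Stress and activity genes gave single values. In the unfolded protein response list 29 of 39 were above 0 with a median of 0.05. Atf3, a stress transcription factor, was at 6.14 and 6.61 in CPEB4 GT/+ and at 6.98 and 6.86 in WT (-0.54, SE 0.16, adjusted p = 0.752), with an INPUT difference of -0.12. Eif2ak3, the ER stress kinase PERK, was at 7.62 and 7.79 in CPEB4 GT/+ and at 7.36 and 7.27 in WT (0.39, SE 0.14), and did not differ between the means in INPUT to 2 decimals (0.00). With the mean of its probe sets the WASH difference was 0.07. Atf6, another ER stress sensor, differed by 0.24. Immediate early genes had 21 of 30 above 0 and a median of 0.08, which was 0.02 without WT 1 and 0.15 without CPEB4 GT/+ 1. Among them were Dusp6, a phosphatase that acts on ERK, at 8.92 and 8.98 in CPEB4 GT/+ and at 8.56 and 8.71 in WT (0.31), and Egr1, the most abundant, at 11.96 and 11.83 in CPEB4 GT/+ and 11.87 and 12.03 in WT. Apold1, of the same list, was lower in CPEB4 GT/+ without overlap (-0.28). Spliceosome, SR and hnRNP genes had 46 of 64 above 0 and a median of 0.06, and with quantile normalization 32 of 64 and 0.0091. Hnrnpab was at 11.86 and 11.72 in CPEB4 GT/+ and at 12.05 and 12.09 in WT (-0.28), but 2 of its 4 other probe sets above the filter differed in the opposite direction, and the mean of its probe sets differed by -0.06. Neuropeptides of cortex and striatum had 10 of 15 above 0, with Vip at 0.47 and Nts at -0.28 (-0.02 without WT 1). Replication-dependent histones had 9 of 11 above 0, and the histone list had medians of -0.06 and 0.26 in the CPEB4 GT/+ animals. Long noncoding nuclear RNAs had 5 of 14 above 0 and a median of -0.06, which turned to 0.01 with the arrays aligned on their hybridisation controls, to 0.04 without WT 1 and to 0.01 without CPEB4 GT/+ 1. Malat1 was at 11.40 and 11.29 in CPEB4 GT/+ and at 11.51 and 11.60 in WT.

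**Figure D4:**
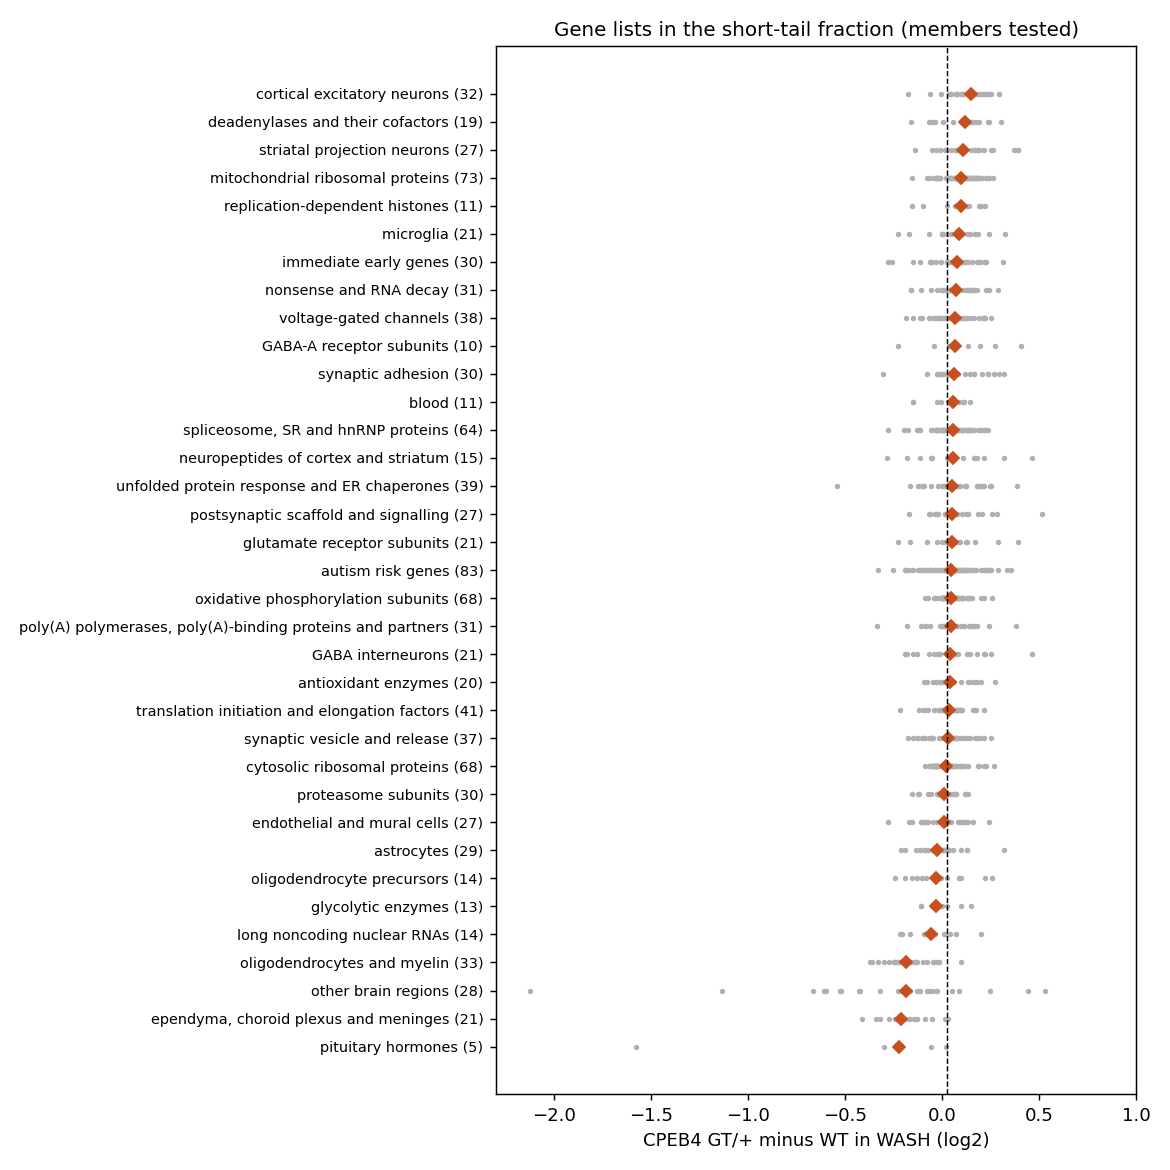
Difference between CPEB4 GT/+ and WT in WASH (log2, horizontal axis) of the kept members (grey points) and their median (orange diamond) in gene lists with at least 5 kept members, the number tested in brackets. The dashed line is the median of all genes, 0.03. Most medians lie close to it, and those of oligodendrocytes, other brain regions, ependyma and pituitary lie at about -0.2. The pituitary list and some members of the list of other brain regions came from earlier results of these data.

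The second comparison asked which genes differed in WASH by another amount than in INPUT of the same animals. Again 0 of 12822 genes were called (0%), and the smallest adjusted p was 1.00. The unadjusted threshold of 0.05 was reached by 381 genes (2.97%), of which 229 were higher (1.79%) and 152 lower (1.19%), a balance of 531 to 15 with the arrays aligned on their hybridisation controls. In 12 genes the animals did not overlap and the difference was at least 0.58 in size (0.0936%). Utp23, a ribosome biogenesis factor, had WASH over INPUT values of 1.30 and 1.19 in CPEB4 GT/+ and 0.67 and 0.49 in WT (difference 0.67, SE 0.15). Its WASH level was 7.17 and 7.46 in CPEB4 GT/+ and 6.75 and 6.79 in WT, with an INPUT difference of -0.12. Its INPUT levels in these animals lay under the highest nonspecific control of their arrays (6.60 to 6.75). INPUT may therefore have been unable to show a difference in this gene.

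Hgh1 had the largest positive difference (0.72, SE 0.14), with WASH over INPUT of 0.69 and 0.40 in CPEB4 GT/+ and -0.23 and -0.13 in WT. It was made of opposite parts, 0.36 in WASH and -0.36 in INPUT. 4930447C04Rik followed (0.69), at 0.23 and 0.46 in CPEB4 GT/+ and -0.19 and -0.50 in WT. Nfatc2ip (0.61) and Zfand5 (0.60) differed in WASH by 0.26 and 0.21 only, and the other probe set of Nfatc2ip above the filter differed by 0.05 in WASH. With the mean of probe sets the WASH over INPUT differences were 0.27 for Utp23, 0.26 for 4930447C04Rik, 0.39 for Nfatc2ip and 0.27 for Zfand5. On the lower side were Hcrt (-0.76), which rests on WT 1, and Pcdha10, a clustered protocadherin gene, with -0.61 and -0.76 in CPEB4 GT/+ and -0.12 and -0.03 in WT (-0.61, SE 0.15). Pcdha10 belongs to a cluster whose members share exons, so its probes may also read its neighbours. Of the 11 genes with the largest differences in WASH, 2 were also among the 7 named for WASH over INPUT, 4930447C04Rik and Hcrt.

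Beyond the genes with a name, 9273 probe sets that carry no single gene symbol here lay above the filter. Of these 0 passed when all 30038 probe sets were tested together, a setting added after the data were seen. An unadjusted p under 0.05 was reached by 653 of them (7.04%), near the share of all probe sets in that test (2021, or 6.73%). The smallest adjusted p in that test was 0.709.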

How the data were processed

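Expression was measured on 18 arrays of 6 mice, of which the 4 WASH arrays of CPEB4 GT/+ and WT animals are compared here. The authors deposited log2 values; the submitters' processing notes name RMA, and its version and annotation are not given in the sources used here. Per the labels' protocols, RNA was amplified and labelled with biotin before hybridisation. The series text names another array design than the PM mark in the probe set names; the names were used, through the supplied probe set table. Of 45141 probe sets, 104 were controls, 28898 had 1 gene symbol, 551 several and 15692 none, and those with 1 were used. By Entrez identifier 28689 matched RefSeq, with 0 changes of symbol.

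A gene with several probe sets was read from the one brightest on average over 18 arrays (17097 genes). The lowest 25% were left out (filter 5.52; the highest mean of 23 nonspecific controls was 5.61), which kept 12822 genes, of which 6407 had more than 1 probe set. Genotype means were fitted in limma 3.58.1 (R 4.3.3, lmFit, contrasts.fit and eBayes, two-sided, Benjamini-Hochberg adjustment over all kept genes, called at 0.05) on the 6 WASH arrays, with CPEB4 KO sharing the estimate of the spread, and on each animal's WASH minus INPUT. With 3 residual degrees of freedom the number of arrays limits the precision, and an exact test of 2 against 2 animals cannot go below p = 0.333. The labels do not say whether animals were litter mates, and p-values measure the spread between these samples.

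Named genes were Cpeb1 to Cpeb4; since under 10 genes were called, up to 12 per direction in WASH and 5 in WASH over INPUT ranked by unadjusted p, whose animals did not overlap and that differed by at least 0.58; and, for each of 37 lists, up to 2 members without overlap with the largest difference and the most abundant member. Not all genes chosen by this rule are described in the text, and other genes were named after their values were seen. The members, lists and tests were chosen with earlier results of these data known. Same-numbered animals did not all deviate together across genes in WASH (r = -0.21 for CPEB4 GT/+ with WT, 0.19 for CPEB4 GT/+ with CPEB4 KO and -0.04 for WT with CPEB4 KO), so no pairing was used. Alternatives were the filter, the probe set rule, the scaling, the arrays in the fit, the variance trend, the replicate block and leaving out each animal. The fit was tested on simulated data with planted differences. It called 18 of 50 planted at a log2 size of 0.58 and 46 of 50 at a size of 1, with 7 false calls. The same simulated data held 50 planted at a size of 2 and 50 at a size of 3, all called, which eases the adjusted threshold for the smaller sizes.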

Additional observations from a re-analysis of the deposited data

How the results depend on the processing

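Only 4 arrays carry the comparison, so single animals decide much of it. In WASH, 0 genes were called under the filter, probe set, centring, quantile, 4-animal and 18-array alternatives (limma, adjusted p under 0.05), and 1 gene was called, lower in CPEB4 GT/+, with the arrays aligned on hybridisation controls, with a variance trend (Gh in both) and with the crossed replicate block, an alternative added after the data were seen. Leaving out each animal gave 0 to 13 called genes, 13 without WT 2, 1 without CPEB4 GT/+ 2 and 0 without the others. At an unadjusted p under 0.05 the count of 803 became 504 with the lowest 50% of genes left out, 497 with aligned arrays, 417 with all 18 arrays and 1237 with the crossed replicate block, and ran from 295 (without CPEB4 GT/+ 2) to 1725 (without CPEB4 GT/+ 1). The replicate numbers do not pair the animals by the check in WASH; the replicate block gave 0 called genes, and 846 at an unadjusted p under 0.05. In WASH over INPUT 0 genes were called under each alternative run, with a replicate block as well, where 390 reached the unadjusted threshold; that count was 229 with the lowest 50% left out and ran from 279 to 990 when animals were left out, the extremes again without CPEB4 GT/+ 2 and without CPEB4 GT/+ 1. The adjusted p of Gh over its 15 alternatives ran from 0.000397 to 0.914.

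The oligodendrocyte median kept its sign in every alternative run: -0.19 as reported, -0.15 with the mean of probe sets, -0.16 with centred arrays, -0.22 with quantile normalization, -0.12 with aligned arrays and -0.20 to -0.15 when animals were left out. The median of cortical excitatory genes was 0.22 with aligned arrays, 0.09 with quantile normalization and 0.09 (without WT 1) to 0.21 (without WT 2) when animals were left out. That of other brain regions ran from -0.23 (without WT 2) to 0.0055 (without WT 1) when animals were left out. Under the naming rule 81 genes were followed by their WASH difference, and not all are described above. With the mean of probe sets 24 of them moved by over 1.5 times or turned, Kcnq1ot1 to 0.036 and Ppp1r3c to -0.028. Over all alternatives 1356 gene values kept their side of 0 and of the threshold, and 6 came past the threshold, those of Gh under 4 settings and of Hcrt and Dlk1 without WT 2. The cause of these changes was not tested.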
